A study of Canis lupus familiaris with 8 samples.

Results

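The genes described are the serine/arginine-rich splicing factors (SRSF), the heterogeneous nuclear ribonucleoproteins (HNRNP) and the CDC2-like kinases (CLK) of the dog. Members were taken by gene symbol alone, every row whose symbol is SRSF and a number, begins with HNRNP, or is CLK1 to CLK4. This gave 33 of the 30424 genes listed, of which 10 are SRSF, 19 HNRNP and 4 CLK. No measured value entered the choice of a member, but the families were picked with the hairpin comparison already known, so counts of members in it are a description.

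SRSF proteins bind exonic enhancers of pre-mRNA through RNA recognition motifs and recruit the spliceosome through a tail of arginine and serine. HNRNP proteins coat nascent transcripts, and many of them oppose SRSF proteins at splice sites. CLK kinases phosphorylate the arginine-serine tail and release SRSF proteins from nuclear speckles. Many of these genes limit their own output by splicing in an exon with an early stop codon or by keeping an intron, so a gene total does not tell productive from unproductive transcripts.

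The data are 8 RNA sequencing libraries of cultured cells from the dog. JuB2 is a canine hemangiosarcoma line, a malignant tumour with endothelial features, and 7 libraries come from it. Of these, 3 are labelled as carrying a short hairpin RNA (shRNA) that knocks down KDM2B, a histone lysine demethylase of a variant Polycomb complex (KDM2B-labelled libraries below), 3 express a scramble shRNA, and 1 is untreated. The last library, labelled EC, is from untreated CnAOEC cells, given as normal endothelium. Both hairpin groups are JuB2 cells, and the labels give no difference between them other than the hairpin. They name a single hairpin against KDM2B. Whether the replicates are separate cultures is not stated, and a p-value therefore covers the spread of these libraries alone, which may be technical.

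Values are in TPM, a measure of transcript abundance scaled by gene length to a common total, which allows levels of different genes to be compared. They keep no depth, which is therefore unknown, and no counting error can be given. The number of genes listed above 0 was 13387 to 13452 in the KDM2B-labelled libraries and 12684 to 12773 in scramble, 12651 in the library labelled EC and 12639 in untreated JuB2. The groups did not overlap in it, and its part in the results below was not tested. KDM2B itself went against the label. It stood at 20.88, 19.69 and 18.25 TPM in the KDM2B-labelled libraries, against 14.01, 15.01 and 12.89 TPM in the scramble libraries (difference 0.46 ± 0.11 SE, limma adjusted p = 0.0101), so each direction below is that of the label and not of a measured loss of the transcript. The 13 mitochondrially encoded genes held 12.0 ± 0.646% of the TPM in the KDM2B-labelled libraries and 18.1 ± 0.786% in scramble (SD, n = 3 each), and their part in the results below was not tested beyond the rescaling given. The library labelled EC listed the endothelial markers PECAM1, VWF, TIE1 and ESAM at 0 and summed to 29.3 TPM over the 9 endothelial markers with a row. Most of that sum was ERG, at 21.93 TPM against 1.28 TPM in untreated JuB2. EMCN, TEK and CDH5 were at 3.11, 2.38 and 0.64 TPM against 0 in untreated JuB2, and KDR at 1.24 against 4.77 TPM. Over 9 smooth muscle and fibroblast markers the library labelled EC summed to 26505 TPM, against 816 TPM in untreated JuB2. It is called the library labelled EC for that reason. In the JuB2 line the endothelial sum was 6.82 to 15.57 TPM with the KDM2B label, 2.83 to 4.03 TPM in scramble and 6.27 TPM untreated. With the KDM2B label that sum was mostly KDR and ERG. KDR was at 5.87, 6.53 and 6.21 TPM against 3.93, 3.42 and 2.61 TPM in scramble. ERG was at 9.22, 7.42 and 0 TPM against 0 in each scramble library. TIE1, CDH5 and EMCN were at 0 in all 7 libraries. The smooth muscle and fibroblast sum was 408.83 to 464.27 TPM with the KDM2B label and 1224.58 to 1266.71 TPM in scramble. The blood markers with a row, 3 of 5, summed to less than 1 TPM in every library.

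Most SRSF and HNRNP genes and 3 of the 4 CLK genes were higher in the KDM2B-labelled libraries than in scramble, and 2 HNRNP genes were lower. The differences were mostly modest. CLK4 and SRSF6 were the only members more than 1 apart on the log2(TPM + 1) scale, while 10.2% of all genes tested were called and at least that far apart. All 33 members passed the filter on low values (at least 1 TPM in 3 or more of the 6 hairpin libraries). In limma, with adjustment over all 11485 genes tested and a threshold of 0.05, 20 of 33 members were higher, where 33.3% of all genes were, and 2 were lower, where 17.6% of all genes were. For calls in either direction the figure over all genes was 50.9%. The groups were free of overlap for 24 of 33 members, against 59.3% of all genes.

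By family, 6 SRSF genes were higher and 0 lower with 4 not passing, 11 HNRNP genes were higher and 2 lower with 6 not passing, and 3 CLK genes were higher and 0 lower with 1 not passing. The median difference was 0.33 for SRSF, 0.22 for HNRNP and 0.65 for CLK on the log2 scale. The median of all genes tested was 0.16, so relative to it the families stood 0.18, 0.06 and 0.50 higher. The median of all genes and the number of calls depend on scaling. With trimmed-mean scaling, which puts the median of all genes close to 0, 15 members were higher and 3 lower (5 and 0 SRSF, 8 and 3 HNRNP, 2 and 0 CLK), where over all genes 2616 were higher and 2899 lower in place of 3823 and 2027. With quantile normalization 16 members were higher and 3 lower, where over all genes 24.8% were higher and 23.4% lower. Relative to the median of all genes the families then stood at 0.16, 0.04 and 0.49 with trimmed-mean scaling.

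**Figure D1:**
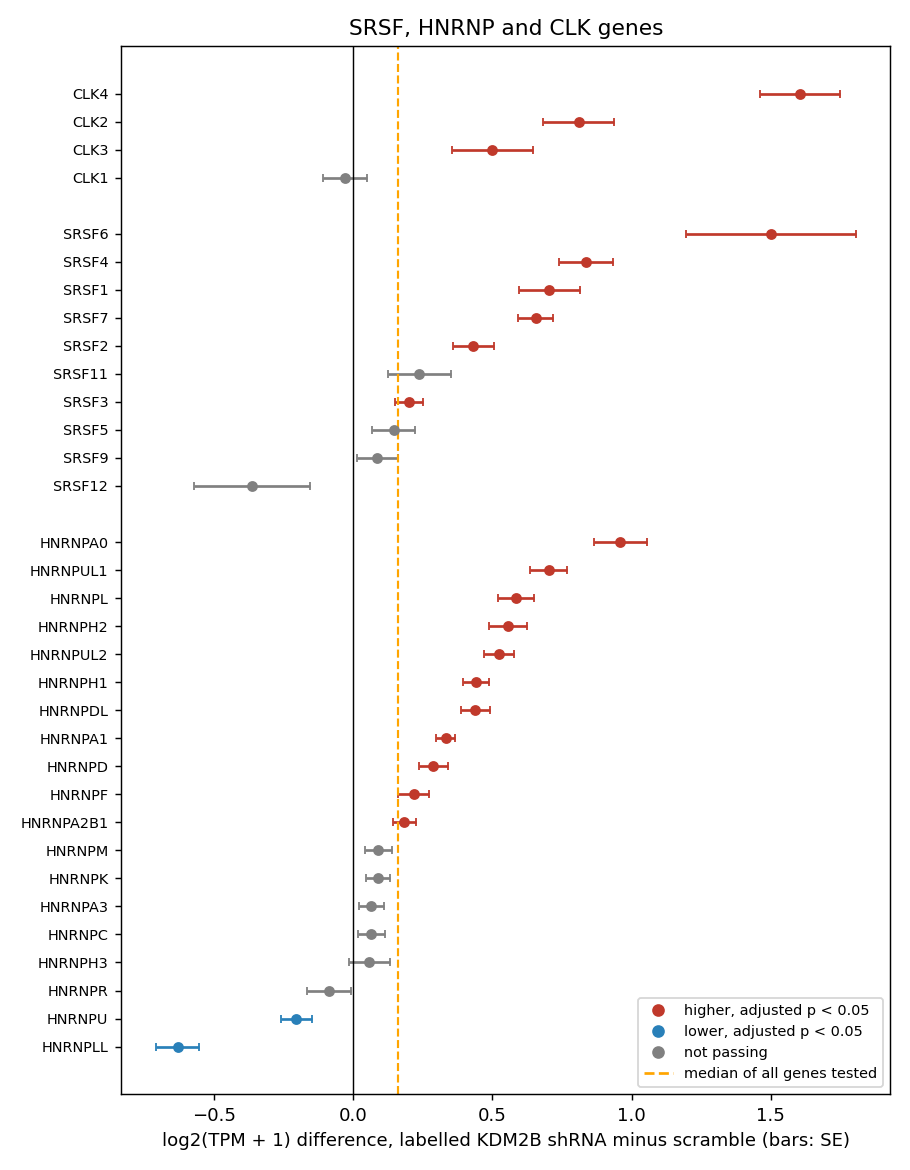
Difference between the 3 KDM2B-labelled libraries and the 3 scramble libraries on the log2(TPM + 1) scale (x axis) for each of the 33 genes (y axis), with the standard error from limma as bars and the median of all genes tested as a dashed line. CLK4 and SRSF6 lie furthest right at 1.60 and 1.50, and HNRNPLL furthest left at -0.63.

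The kinases differed from each other more than their sum shows. CLK1, which phosphorylates SRSF proteins throughout their arginine-serine tail, was the most abundant of the 4 in every library. It stood at 68.6, 63.91 and 68.72 TPM in the KDM2B-labelled libraries and at 69.01, 63.29 and 73.55 TPM in scramble. The groups overlapped, with a difference of -0.03 ± 0.08 (SE, limma adjusted p = 0.773).

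CLK4, the closest paralog of CLK1, was the lowest of the 4 in every library. It reached 13.4, 11.48 and 11.74 TPM in the KDM2B-labelled libraries, against 3.34, 3.04 and 3.64 TPM in scramble. All 3 values with the KDM2B label lay far above the scramble range, and the means of 12.2 ± 1.04 and 3.34 ± 0.300 TPM (SD, n = 3 each) were 3.65-fold apart. The log2 difference was 1.60 ± 0.14 (SE, limma adjusted p = 0.000131). It was 1.04 with a pseudocount of 5 TPM (adjusted p = 0.000117), which weighs on low genes. Untreated JuB2 held 6.47 TPM, between both groups.

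CLK2, a kinase that also acts in insulin signalling in the mouse liver, stood at 34.61, 32.85 and 26.35 TPM in the KDM2B-labelled libraries and at 16.02, 18.56 and 17.4 TPM in scramble. The groups did not overlap (0.81 ± 0.13, SE, limma adjusted p = 0.00146). CLK3 stood at 16.07, 20.82 and 22.57 TPM with the KDM2B label and at 13.59, 12.57 and 14.71 TPM in scramble. The lowest value with the label was only just above the highest scramble value (0.50 ± 0.15, SE, limma adjusted p = 0.0229). CLK3 did not pass with any other scaling tried (limma adjusted p = 0.0575 to 0.112), nor without scramble library 1 or 2 (0.0532 and 0.0681) or KDM2B-labelled library 2 or 3 (0.0673 and 0.0733).

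The make-up of the family shifted with these values. CLK1 made up 51.4% of the summed CLK level in the KDM2B-labelled libraries and 66.7% in scramble, and CLK4 made up 9.36% and 3.25%. The ratio of CLK1 to CLK4, which a single factor per library leaves as it is, was 5.12, 5.57 and 5.85 in the KDM2B-labelled libraries and 20.7, 20.8 and 20.2 in scramble. It was 12.6 in the library labelled EC and 11.5 in untreated JuB2. The ratio of CLK2 to CLK3 overlapped between the hairpins, at 2.15, 1.58 and 1.17 with the KDM2B label and 1.18, 1.48 and 1.18 in scramble.

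**Figure D2:**
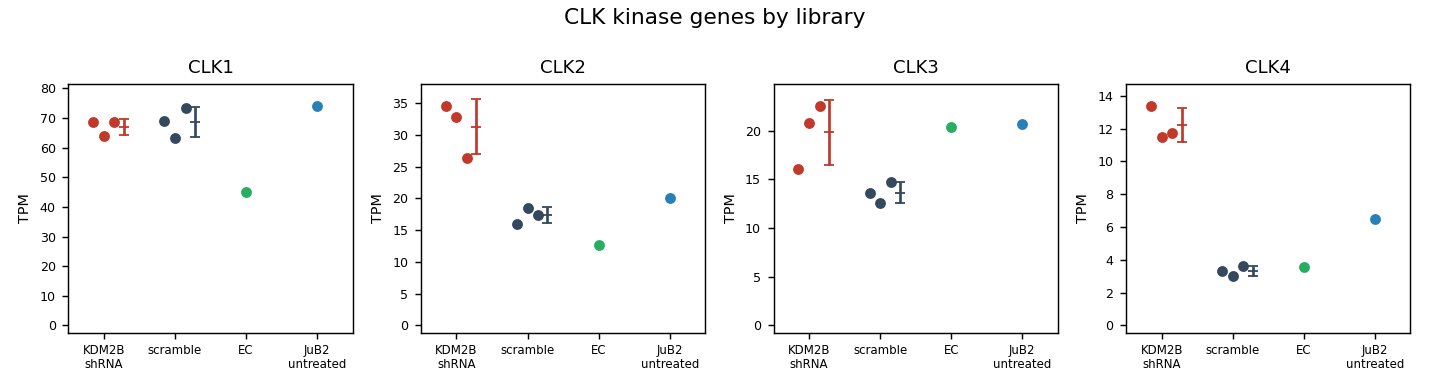
TPM of the 4 CLK genes (y axis, a scale for each gene) in each library, grouped on the x axis, with the mean and SD beside groups of 3. CLK4 is at 11.48 to 13.4 TPM in the KDM2B-labelled libraries and at 3.04 to 3.64 TPM in scramble, while CLK1 overlaps.

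Among the SRSF genes, the largest difference was that of SRSF6, a regulator of alternative exons that has an arginine-serine tail and a pair of RNA recognition motifs. Its level was low, at 22.59, 29.2 and 16.81 TPM in the KDM2B-labelled libraries and at 5.7, 5.43 and 11.99 TPM in scramble. Scramble library 3 stood about midway between the other scramble values and the KDM2B-labelled range, and the groups did not overlap (1.50 ± 0.30, SE, limma adjusted p = 0.00483). Untreated JuB2 held 2.23 TPM and the library labelled EC listed it at 0. An exact 0 can be a failed estimate, since how reads shared with similar copies were assigned is not given, so this gene's levels are uncertain.

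SRSF4, a relative of SRSF6 with the same domains, stood at 65.94, 66.84 and 59.99 TPM in the KDM2B-labelled libraries and at 35.27, 39.59 and 32.11 TPM in scramble. The lowest KDM2B-labelled value was well above the highest scramble value (0.84 ± 0.10, SE, limma adjusted p = 0.000393). SRSF5, the third of that branch, overlapped at 144.46, 153.22 and 162.05 TPM against 148.86, 140.86 and 126.34 TPM in scramble (0.14 ± 0.08, SE, limma adjusted p = 0.162).

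SRSF1, the founding member, which promotes use of proximal splice sites and also acts in translation and decay, stood at 471.93, 344.24 and 376.27 TPM in the KDM2B-labelled libraries and at 231.76, 251.94 and 240.71 TPM in scramble. KDM2B-labelled library 1 was the highest, and all 3 lay above scramble (0.70 ± 0.11, SE, limma adjusted p = 0.00142). SRSF9, its closest paralog, stood at 183.33, 191.95 and 206.49 TPM with the KDM2B label and at 172.22, 177.99 and 197.81 TPM in scramble, and the groups overlapped (0.09 ± 0.07, SE, limma adjusted p = 0.359). The ratio of SRSF1 to SRSF9 was 2.57, 1.79 and 1.82 in the KDM2B-labelled libraries and 1.35, 1.42 and 1.22 in scramble.

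SRSF7, whose RNA recognition motif is joined to a zinc knuckle, stood at 323.98, 307.23 and 296.64 TPM in the KDM2B-labelled libraries and at 182.74, 201.71 and 203.53 TPM in scramble. The groups were clearly apart (0.66 ± 0.06, SE, limma adjusted p = 0.000169). SRSF3, the smallest member of the family and a paralog of SRSF7, was the most abundant SRSF gene in every group, at 449.02, 453.89 and 440.08 TPM with the KDM2B label and 406.75, 394.45 and 369.28 TPM in scramble. Its groups did not overlap, but the difference of 0.20 ± 0.05 (SE, limma adjusted p = 0.0128) was close to the median of all genes. It did not pass with trimmed-mean scaling (0.02, adjusted p = 0.734), quantile normalization (0.0956), rescaling without the mitochondrially encoded genes (0.123) or without the intensity trend in the variance (0.0713). The ratio of SRSF3 to SRSF7 was 1.39, 1.48 and 1.48 in the KDM2B-labelled libraries and 2.23, 1.96 and 1.81 in scramble.

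SRSF2, known as SC35 and long used as a marker of nuclear speckles, stood at 211.43, 179.25 and 186.94 TPM in the KDM2B-labelled libraries and at 141.46, 148.37 and 136.98 TPM in scramble. The groups did not overlap (0.43 ± 0.07, SE, limma adjusted p = 0.00237). Trimmed-mean scaling put it at 0.25 (adjusted p = 0.0171). SRSF11, an atypical member, overlapped at 71.22, 67.72 and 60.51 TPM against 54.26, 65.31 and 49.85 TPM in scramble (0.24 ± 0.11, SE, limma adjusted p = 0.121), but without scramble library 2 it passed (0.35, adjusted p = 0.0318). SRSF12, the least abundant SRSF gene in the KDM2B-labelled libraries, stood at 8.6, 6.05 and 4.75 TPM there and at 9.56, 7.78 and 7.94 TPM in scramble. It overlapped as well (-0.36 ± 0.21, SE, limma adjusted p = 0.184), and without KDM2B-labelled library 1 it passed as lower (-0.56, adjusted p = 0.045). SRSF8 and SRSF10 are not analysed here, since no row carries those symbols.

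**Figure D3:**
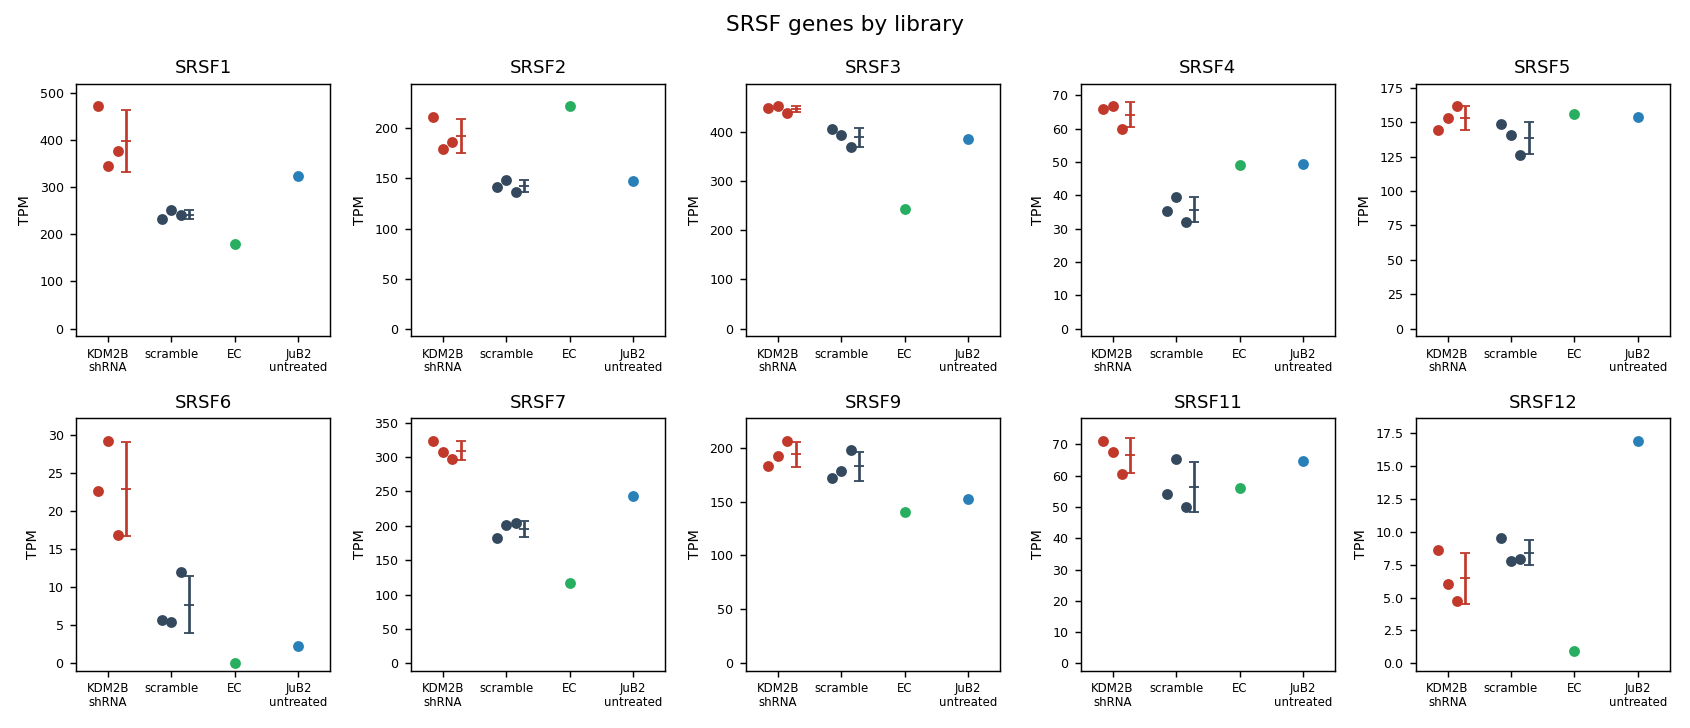
TPM of the 10 SRSF genes (y axis, a scale for each gene) in each library, grouped on the x axis, with the mean and SD beside groups of 3. SRSF1, SRSF4 and SRSF7 lie above scramble in all 3 KDM2B-labelled libraries, while SRSF5, SRSF9, SRSF11 and SRSF12 overlap.

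In the HNRNP family the largest rise was that of HNRNPA0, an intronless member of the A/B branch that binds AU-rich elements. It stood at 143.33, 133.73 and 122.47 TPM in the KDM2B-labelled libraries and at 61.12, 74.68 and 68.34 TPM in scramble. All values with the KDM2B label were well above scramble, and the means were 1.96-fold apart (0.96 ± 0.09, SE, limma adjusted p = 0.000188).

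The other A/B members are the most abundant of the family and differed less. HNRNPA1, a repressor of exons and a shuttling protein of mRNA export, stood at 2036.76, 1943.08 and 1945.24 TPM in the KDM2B-labelled libraries and at 1581.96, 1577.92 and 1546.35 TPM in scramble (0.33 ± 0.04, SE, limma adjusted p = 0.000265). Trimmed-mean scaling put it at 0.15 (adjusted p = 0.00682). It was the highest of all 33 genes in every library and held 26.1% of the summed HNRNP level with the KDM2B label and 24.5% in scramble. Mammalian genomes hold processed copies of this gene, and how reads shared with them were assigned is not given. HNRNPA2B1, which binds RNA transport signals, stood at 883.77, 842.66 and 851.73 TPM with the KDM2B label and at 774.26, 763.83 and 732.51 TPM in scramble. The groups did not overlap (0.18 ± 0.04, SE, limma adjusted p = 0.00819), but with trimmed-mean scaling the difference was 0.00 (adjusted p = 0.926), and it did not pass with quantile normalization (0.816), without the mitochondrially encoded genes (0.114) or without the intensity trend (0.0779). HNRNPA3 overlapped, at 664.69, 670.36 and 624.61 TPM against 621.54, 641.02 and 609.89 TPM in scramble.

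HNRNPL, which binds CA-rich RNA, and its paralog HNRNPLL went opposite ways. HNRNPL stood at 329.86, 290.19 and 291.71 TPM in the KDM2B-labelled libraries and at 203.61, 195.72 and 207.2 TPM in scramble (0.58 ± 0.06, SE, limma adjusted p = 0.000312). HNRNPLL, known for the switch of CD45 isoforms in T cells of the mouse and human, stood at 36.94, 37.41 and 40.44 TPM with the KDM2B label and at 60.13, 62.37 and 56.92 TPM in scramble. No values overlapped in either gene, and HNRNPLL fell by 0.63 in log2 units (SE 0.08, limma adjusted p = 0.000506). It was lower under all 16 alternatives. The ratio of HNRNPL to HNRNPLL was 8.93, 7.76 and 7.21 in the KDM2B-labelled libraries and 3.39, 3.14 and 3.64 in scramble. It was 8.85 in the library labelled EC and 3.45 in untreated JuB2.

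The U branch, large nuclear proteins with a SAP domain that binds DNA, split as well. HNRNPUL1 stood at 175.52, 154.54 and 158.86 TPM in the KDM2B-labelled libraries and at 102.87, 98.18 and 98.05 TPM in scramble (0.70 ± 0.07, SE, limma adjusted p = 0.000171). HNRNPUL2, which with HNRNPUL1 is known to act at DNA breaks, stood at 193.83, 188.71 and 183.38 TPM with the KDM2B label and at 133.04, 126.45 and 133.23 TPM in scramble (0.52 ± 0.05, SE, limma adjusted p = 0.000246), a difference of 0.35 with trimmed-mean scaling (adjusted p = 0.00115). HNRNPU, a scaffold of chromatin and RNA, was lower, at 300.38, 269.95 and 277.13 TPM with the KDM2B label against 332.41, 326.27 and 318.21 TPM in scramble. Its groups did not overlap (-0.21 ± 0.06, SE, limma adjusted p = 0.0167), yet it did not pass without scramble library 1 (adjusted p = 0.051), without KDM2B-labelled library 2 or 3 (0.0584 and 0.0508) or without the intensity trend (0.0716). It was further below scramble with trimmed-mean scaling (-0.38, adjusted p = 0.000635) and without the mitochondrially encoded genes (-0.31, adjusted p = 0.00205).

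The H and F proteins bind runs of G. HNRNPH1 stood at 382.66, 398.82 and 409.65 TPM in the KDM2B-labelled libraries and at 290.83, 290.4 and 295.66 TPM in scramble (0.44 ± 0.05, SE, limma adjusted p = 0.000256), a difference of 0.26 with trimmed-mean scaling (adjusted p = 0.00558). HNRNPH2, its paralog, stood at 63.31, 64.93 and 65 TPM with the KDM2B label and at 45.04, 41.83 and 43.72 TPM in scramble (0.56 ± 0.07, SE, limma adjusted p = 0.000534). Both were clear of the scramble range, and their ratio differed little, at 6.04 to 6.30 with the KDM2B label and 6.46 to 6.94 in scramble. HNRNPF stood at 494.45, 449.14 and 470.8 TPM with the KDM2B label and at 421.43, 411.59 and 383.94 TPM in scramble (0.22 ± 0.06, SE, limma adjusted p = 0.0148). It did not pass with trimmed-mean scaling (0.56), quantile normalization (0.138), without the mitochondrially encoded genes (0.108) or without the intensity trend (0.0693). HNRNPH3 overlapped, with means of 93.6 ± 3.61 TPM with the KDM2B label and 90.0 ± 6.19 TPM in scramble.

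HNRNPD, known as AUF1 and a factor of AU-rich mRNA decay, stood at 447.55, 450.48 and 407.64 TPM in the KDM2B-labelled libraries and at 356.78, 357.34 and 354.68 TPM in scramble (0.29 ± 0.05, SE, limma adjusted p = 0.00301), and did not pass with trimmed-mean scaling (0.11, adjusted p = 0.0907). Its difference was 0.18 both with quantile normalization (adjusted p = 0.0273) and without the mitochondrially encoded genes (adjusted p = 0.0181). HNRNPDL, its paralog, stood at 296.38, 293.52 and 284.18 TPM with the KDM2B label and at 215.77, 222.49 and 206.29 TPM in scramble (0.44 ± 0.05, SE, limma adjusted p = 0.000398), a difference of 0.26 with trimmed-mean scaling (adjusted p = 0.00348). Neither gene's groups overlapped. The rest of the family did not pass. HNRNPK, which binds C-rich RNA, averaged 483 ± 11.7 TPM with the KDM2B label and 454 ± 10.9 TPM in scramble. HNRNPM averaged 267 ± 6.96 and 251 ± 4.61 TPM and HNRNPC, which binds U tracts, 320 ± 9.92 and 306 ± 8.92 TPM, with the KDM2B label and in scramble (SD, n = 3 each). HNRNPR stood at 167.16, 142.17 and 139.48 TPM with the KDM2B label and 155.29, 161.52 and 158.68 TPM in scramble (-0.09 ± 0.08, SE, limma adjusted p = 0.385), and it passed as lower with trimmed-mean scaling (-0.26, adjusted p = 0.0163) and quantile normalization (-0.20, adjusted p = 0.0473). HNRNPAB is not analysed here, since no row carries that symbol.

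**Figure D4:**
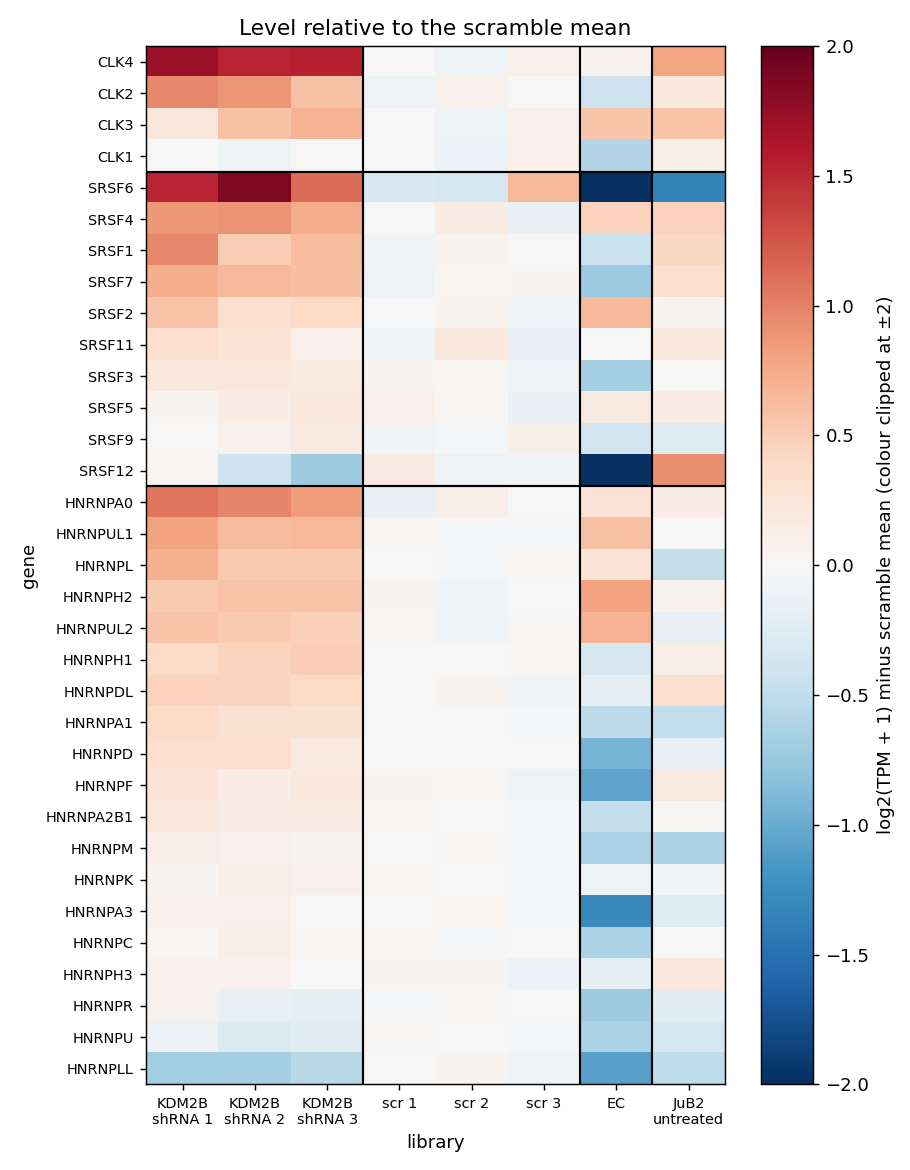
Level of each of the 33 genes (rows) in each of the 8 libraries (columns) as log2(TPM + 1) minus the mean of the scramble libraries, with colour clipped at 2 in either direction. The KDM2B-labelled libraries are red for most rows, HNRNPU and HNRNPLL are blue in all 3 of them, and the library labelled EC is blue for most HNRNP rows.

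The ratio of a pair of paralogs within a library is left as it is by a single factor per library, and of 17 such pairs 15 had a row for both genes. In 13 of them the ratios of the hairpin groups did not overlap. The share among other pairs of genes was not taken, and among single genes tested the groups did not overlap for 59.3%. The count is therefore a description and not a trait of these pairs. For these 13 pairs the exact two-sided permutation test gave p = 0.1, the smallest that 3 libraries against 3 allow, or 0.115 adjusted over the 15 pairs, so no pair could pass. The widest shifts on the log2 scale were those of CLK1 over CLK4 (-1.90), SRSF5 over SRSF6 (-1.49) and HNRNPL over HNRNPLL (1.23). The ratio of SRSF5 to SRSF6 was 6.39, 5.25 and 9.64 with the KDM2B label and 26.1, 25.9 and 10.5 in scramble. Its groups nearly met, and the levels of SRSF6 are uncertain. The ratio of HNRNPC to RALY, its paralog, shifted by -0.49, and those of HNRNPR to its paralog SYNCRIP and HNRNPD to HNRNPDL by -0.27 and -0.15. SRSF4 over SRSF6 and CLK2 over CLK3 overlapped between the groups.

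Summed over a family, the level was 1952.5, 1799.59 and 1810.53 TPM for SRSF in the KDM2B-labelled libraries and 1388.58, 1433.43 and 1376.54 TPM in scramble, a ratio of means of 1.32. For HNRNP it was 7772.68, 7517.53 and 7417.58 TPM with the KDM2B label and 6482.81, 6448.64 and 6291.87 TPM in scramble, a ratio of 1.18. CLK summed to 132.68, 129.06 and 129.38 TPM with the KDM2B label and 101.96, 97.46 and 109.3 TPM in scramble, a ratio of 1.27. No sum overlapped between the groups. With trimmed-mean scaling the ratios came to 1.17, 1.04 and 1.12. The summed HNRNP level divided by the summed SRSF level, which a single factor per library leaves as it is, was 4.09 ± 0.0988 in the KDM2B-labelled libraries and 4.58 ± 0.0853 in scramble (SD, n = 3 each), 3.99 in the library labelled EC and 3.70 in untreated JuB2.

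**Figure D5:**
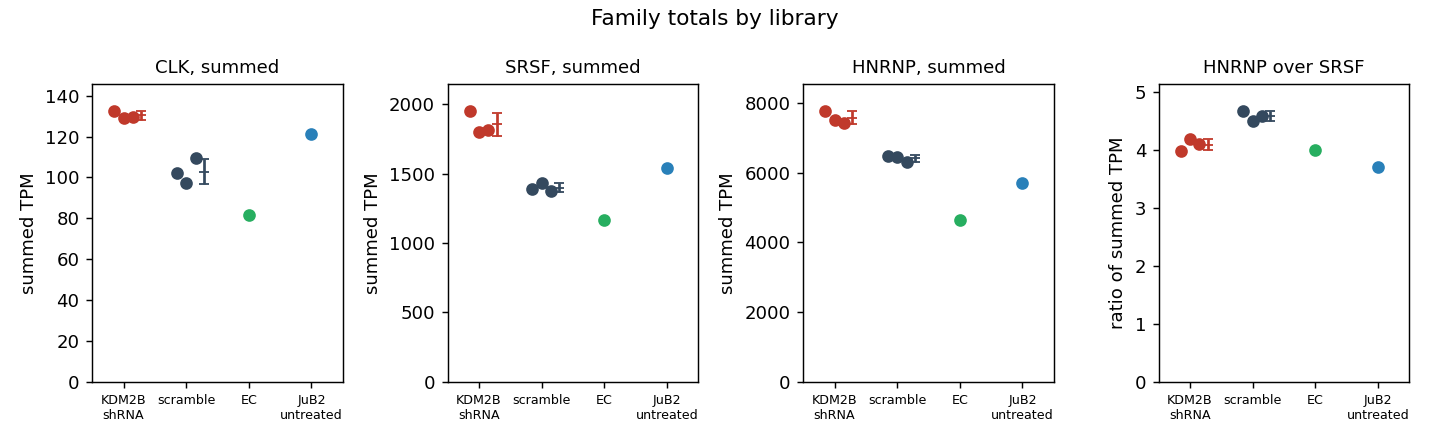
Summed TPM of each family, and the HNRNP sum divided by the SRSF sum (y axes), in each library, grouped on the x axis, with the mean and SD beside groups of 3. The KDM2B-labelled libraries have the highest sums in all 3 families, and scramble the highest HNRNP to SRSF ratio.

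The order of levels was nearly the same in both hairpin groups for SRSF and the same for CLK, but changed among the lower HNRNP genes. From high to low, the SRSF genes ran SRSF3, SRSF1, SRSF7, SRSF9, SRSF2, SRSF5, SRSF11 and SRSF4 in both groups, ending with SRSF6 and SRSF12 in the KDM2B-labelled libraries and SRSF12 and SRSF6 in scramble. Of the 9 neighbouring pairs in that order, 3 overlapped in each group. The HNRNP order began with HNRNPA1, HNRNPA2B1, HNRNPA3, HNRNPK, HNRNPF and HNRNPD in both. HNRNPU ranked seventh in scramble but below HNRNPH1, HNRNPC, HNRNPL and HNRNPDL with the KDM2B label. Of the genes after HNRNPD only HNRNPC kept its rank, and HNRNPLL and HNRNPH2 exchanged the lowest places. Of 18 neighbouring HNRNP pairs, 9 overlapped with the KDM2B label and 2 in scramble. The CLK order was CLK1, CLK2, CLK3 and CLK4 in both hairpin groups, with no neighbours overlapping.

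The untreated JuB2 library is single and stands beside scramble without a replicate check, so library variation and a hairpin effect cannot be told apart. The untreated value lay above all 3 scramble libraries for 15 members, where 32.4% of all genes tested did, below them for 12, where 31.8% did, and within their range for 6. Among the 20 members called higher with the KDM2B label, untreated JuB2 lay below all 3 KDM2B-labelled libraries for 18 and within their range for 2, which are CLK3 and HNRNPF. Of all genes called higher, 92.6% had untreated JuB2 below those 3 libraries and 5.44% within their range, so the members' share is near that of all such genes. CLK3 held 20.69 TPM in untreated JuB2, and SRSF1 held 323.33 and SRSF7 243.37 TPM, both between the hairpin groups. HNRNPLL held 41.93 TPM there, nearer the KDM2B-labelled values than scramble. Of the 12 members below scramble in untreated JuB2, all but HNRNPLL were also below the KDM2B-labelled libraries. Among them were HNRNPA1, HNRNPL and HNRNPM, at 1117.8, 144.74 and 161.94 TPM. The share of all genes below both groups was not taken.

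In TPM as deposited, the library labelled EC held less of most members than untreated JuB2. Both are single libraries, so this difference has no replicate check, and in bulk RNA fewer cells of a type and less RNA per cell cannot be told apart. The library labelled EC was lower for 26 members and higher for 7, with a median of -0.44 on the log2 scale, against -0.34 for all genes at 5 TPM or more in either library. The share of all genes that were lower in that library was not taken. Of the 32 members at 5 TPM or more in either, 0 were at least 2-fold higher in the library labelled EC, where 14.2% of all such genes were, and 4 at least 2-fold lower, where 26.7% were. With trimmed-mean scaling these counts became 3 and 1, so they depend on scaling. The split of 26 and 7 does too. Among others, HNRNPA1, HNRNPK and HNRNPM went from -0.03, -0.06 and -0.02 to 0.35, 0.32 and 0.35 with that scaling. No member changed sign the other way.

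The 4 lower members were SRSF12, HNRNPF, SRSF7 and HNRNPA3. SRSF12 held 0.94 TPM in the library labelled EC against 16.94 TPM in untreated JuB2, and it stayed at least 2-fold lower with trimmed-mean scaling and against each scramble library. HNRNPF held 194.16 against 460.59 TPM, SRSF7 117.39 against 243.37 TPM and HNRNPA3 255.46 against 527.36 TPM. SRSF1 was next at 178.97 against 323.33 TPM. Against scramble libraries 1, 2 and 3, HNRNPA3 was also at least 2-fold lower (-1.28, -1.32 and -1.25 on the log2 scale). HNRNPF was so against libraries 1 and 2 only (-1.11, -1.08 and -0.98), and SRSF7 against none (-0.63, -0.78 and -0.79). SRSF6 was listed at 0 in the library labelled EC. On the other side, chosen after their values were seen, HNRNPH2, HNRNPUL2 and SRSF2 held 76.95, 211.57 and 222.56 TPM in the library labelled EC, above all 7 JuB2 libraries, where 19.3% of all genes tested were. In that library 22 of the 33 members were below all 7, where 49.7% of all genes tested were.

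Other genes of splicing were counted in the same fit, where over all genes 33.3% were higher and 17.6% lower with a median of 0.16. Of 21 tested genes for kinases of SRSF proteins and SR-related proteins, 16 were higher, 2 lower and 3 did not pass, with a median of 0.72. Trimmed-mean scaling gave 15 higher and 2 lower, where 22.8% of all genes were higher and 25.3% lower. SRRM2 and SON, scaffolds of nuclear speckles, averaged 55.0 ± 3.89 and 57.6 ± 2.02 TPM in the KDM2B-labelled libraries and 23.5 ± 0.260 and 25.1 ± 2.02 TPM in scramble (SD, n = 3 each), with limma adjusted p = 5.97e-05 and 7.53e-05. LUC7L, a factor of the U1 particle, averaged 70.1 ± 3.96 and 29.3 ± 3.19 TPM. The lower genes were SRPK3 and SRPK2, kinases of SRSF proteins in the cytoplasm and nucleus, at 6.32 ± 1.29 and 66.3 ± 5.83 TPM with the KDM2B label and 12.9 ± 0.603 and 86.5 ± 7.85 TPM in scramble. SRPK1 was higher (0.48 ± 0.14, SE, limma adjusted p = 0.0231) but did not pass with trimmed-mean scaling (0.31, adjusted p = 0.0942). Higher too was DYRK1A, a further kinase of splicing factors (1.40 ± 0.17, SE, limma adjusted p = 0.000511).

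Of 31 tested core spliceosome genes, 24 were higher, 0 lower and 7 did not pass, with a median of 0.50 (21 higher and 1 lower after trimmed-mean scaling). SF3B4, a subunit of the U2 particle, averaged 318 ± 11.8 TPM in the KDM2B-labelled libraries and 161 ± 6.92 TPM in scramble (limma adjusted p = 3e-05). PRPF3 and PRPF8, of the tri-snRNP, averaged 124 ± 10.04 and 139 ± 8.75 TPM with the KDM2B label and 57.3 ± 2.21 and 75.0 ± 3.83 TPM in scramble. Of 28 tested hnRNPs and RNA-binding regulators under other symbols, 11 were higher, 6 lower and 11 did not pass, with a median of 0.11 (8 higher and 9 lower after trimmed-mean scaling). PCBP1, a C-rich RNA binder, and PTBP1, the polypyrimidine tract binder, averaged 217 ± 3.20 and 271 ± 11.3 TPM with the KDM2B label and 144 ± 6.20 and 184 ± 11.9 TPM in scramble. ESRP1, an epithelial splicing factor, was lower at 25.3 ± 5.20 against 61.2 ± 4.86 TPM in scramble (limma adjusted p = 0.000356). Nonsense-mediated decay, which degrades the transcripts with early stop codons that SRSF genes make, had 9 of 13 tested genes higher, 0 lower and 4 not passing, with a median of 0.44. Trimmed-mean scaling left 4 higher and made 1 lower, where 22.8% of all genes were higher and 25.3% lower. EIF4A3 and RBM8A, of the exon junction complex, averaged 221 ± 2.71 and 406 ± 15.1 TPM with the KDM2B label and 119 ± 6.36 and 272 ± 9.08 TPM in scramble, and SMG8 24.2 ± 0.510 and 9.97 ± 0.843 TPM (SD, n = 3 each).

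The place of these genes in the genome was read from the RefSeq gene order of the assembly UU_Cfam_GSD_1.0, in which all 33 symbols matched. It differs from the build named for the data, so no coordinates are given. HNRNPDL and HNRNPD have 1 protein-coding gene between them, as do HNRNPLL and SRSF7, where it is GALM. The first pair moved the same way and the second opposite ways, HNRNPLL lower and SRSF7 higher with the KDM2B label. HNRNPD, of the first pair, did not pass with trimmed-mean scaling (0.11, limma adjusted p = 0.0907). HNRNPH1 and CLK4, both higher, have 10 between them. How often other neighbouring genes moved the same way was not taken, so these pairs are a description.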

How the data were processed

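RNA was measured in 8 libraries. The deposited table holds gene-level TPM computed by the authors, 1 column per library, per the file headers. The submitters' processing notes name STAR, RSEM and the build CanFam3.1 but give neither role nor version. Use of strand, shared reads and filters: not given in the sources used here. All 8 columns were used. TPM keeps no depth, so no count model or counting interval was used.

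The fit of KDM2B-labelled against scramble libraries (3 each) used limma 3.58.1 (R 4.3.3) and its intensity trend on log2(TPM + 1) of genes with at least 1 TPM in 3 or more of the 6, with Benjamini-Hochberg adjustment over all genes tested (threshold 0.05). This scale understates folds of low genes. The library labelled EC and untreated JuB2 were compared by size, at least 1 apart on that scale with the higher at 5 TPM or more. The fit was also run on simulated data, and the outcome of that run is not reported here. Members, lists and pairs were chosen with earlier results of these data known. Values in every library are given for the CLK genes, the members with the largest differences, the highest of each family and many paralogs. Up to 3 genes with the smallest p are named per other list, and the SRPK genes and DYRK1A after their values were seen. Alternatives were trimmed-mean scaling (30% and 5% trimmed, unweighted), quantile normalization, rescaling without mitochondrially encoded genes, other filters, pseudocounts of 0.1 and 5, no trend, the replicate number as a block, 7 libraries and leaving out each library. Figures used matplotlib 3.10.9.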

Additional observations from a re-analysis of the deposited data

How the results depend on the processing

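Of 528 alternative values of the 33 members (16 each), 478 kept direction and side of the threshold, 24 lost the call, 4 gained one and 22 changed sign, and 16 members kept both under every alternative. All changes of sign were of members that did not pass. With trimmed-mean scaling, quantile normalization and rescaling without mitochondrially encoded genes, in that order, the difference was -0.113, -0.0378 and -0.0385 for HNRNPA3, -0.113, -0.0156 and -0.0389 for HNRNPC, -0.120, -0.0359 and -0.0459 for HNRNPH3, -0.09, -0.019 and -0.0155 for HNRNPK, -0.0882, -0.0342 and -0.0138 for HNRNPM and -0.0909, -0.0431 and -0.0167 for SRSF9. SRSF5 was at -0.0325 with trimmed-mean scaling. Leaving out a library put CLK1 between -0.0865 and 0.0203 and HNRNPH3 between -0.0011 and 0.0889. Members lower with the KDM2B label numbered 1 without the intensity trend (1 HNRNP), and 1 to 3 when each library was left out (HNRNP 1 to 2, SRSF 0 to 1). The log2 ratio of summed levels was 0.23 for SRSF, 0.0617 for HNRNP and 0.16 for CLK with trimmed-mean scaling, and 0.30, 0.14 and 0.24 without mitochondrially encoded genes, in place of 0.41, 0.24 and 0.34. It ranged from 0.37 to 0.43, 0.22 to 0.25 and 0.30 to 0.39 when each library was left out. In the library labelled EC against untreated JuB2, 3 members were at least 2-fold higher and 1 lower with trimmed-mean scaling, in place of 0 and 4. Same-numbered replicates did not deviate together (correlations 0.034, 0.012 and -0.046), and with the replicate block 20 members were higher and 2 lower, as without it.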
